A study of Mus musculus with 9 samples.

Results

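The maturation of the control heart ventricle between postnatal day 6 (P6) and postnatal days 9 to 10 (P10) was followed in 6 libraries of single nuclei, 3 at each age, out of 9 libraries in the series. The members were the control libraries by title, and the unit compared was the library. The mice were C57BL6/J with the genotype ERRalphaHet/ERRgammaWT at both ages, so every library described here came from animals labelled heterozygous for the nuclear receptor gene Esrra, and the labels give no agent or treatment. Sex is given as not determined, and the labels do not say how many hearts went into a library or which ventricles had been frozen. The remaining 3 libraries, from ERRalphaKO/ERRgammaKO mice at P10, entered none of the values below unless named. In sNucDrop-Seq a nucleus is caught in a droplet with a barcoded bead, and each captured RNA molecule is counted once by its unique molecular identifier (UMI). UMIs outside the mitochondrially encoded genes were summed per gene over barcodes with at least 500 such UMIs, which kept 16579 of the 27103 barcodes that pass this minimum in the whole series.

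In the days after birth, ventricular cardiomyocytes stop dividing, build the T-tubule and sarcoplasmic reticulum machinery that couples the action potential to contraction, exchange fetal for adult sarcomere proteins, and turn from glucose to fatty acids as fuel. Thyroid hormone receptors, the PPAR receptors and the estrogen-related receptors ERRα and ERRγ are known drivers of this programme. Nuclear RNA holds many unspliced transcripts, so long genes with much intron sequence weigh heavily in it.

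The control P6 libraries kept 1882 to 2641 barcodes and 2134279 to 3544224 UMIs, and the control P10 libraries kept 2077 to 3875 barcodes and 2439168 to 4837790 UMIs. The median barcode held 798 to 955 UMIs over the 6 libraries, and no more than 1 barcode was shared by any pair of them. The first principal component held 69.5% of the variance and separated the ages, with control P6 library 1 nearest to the P10 side among the P6 libraries. Mitochondrially encoded RNA stood apart: it took 0.876% to 2.33% of UMIs at control P6 and 28.4%, 8.14% and 16.2% in control P10 libraries 1 to 3. Malat1, an RNA retained in nuclei, took 14.1%, 9.66% and 8.80% of UMIs at control P6 and 6.30%, 7.92% and 9.00% at control P10. Xist, the RNA of the inactive X chromosome, was at 1873, 2121 and 2263 CPM (UMIs scaled to a common library size) at control P6 but at 819, 0.843 and 0.530 CPM at control P10, where libraries 2 and 3 held 0.0427% and 0.0452% Y-linked UMIs against 0.00193% in library 1. The edgeR adjusted p for Xist was 0.137, and it was called without control P10 library 1. For X-linked genes, among them Fgf13, Pdha1 and Apln below, age and this difference cannot be told apart. Barcodes in which cardiomyocyte genes were the leading marker class made up 66.4%, 68.5% and 70.5% at control P6 and 86.6%, 74.2% and 89.0% at control P10. Cardiomyocyte markers themselves rose in the sums, with 5 of 10 higher and a summed share of 3.33% ± 0.0772 at P6 and 4.55% ± 0.671 at P10 (SD, n = 3, exact two-sided permutation p = 0.1). Their part in the results on genes of cardiomyocytes was not tested. Counts within the barcodes led by cardiomyocyte or fibroblast markers (cardiomyocyte-marker and fibroblast-marker barcodes) are given beside most of those results. Since whole libraries were summed, fewer cells of a type and less RNA per cell cannot be told apart.

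Of 14756 genes with enough UMIs to test, 1566 were higher at control P10 (10.6%) and 2063 were lower (14.0%), so that 24.6% were called in all, at a Benjamini-Hochberg adjusted p under 0.05 in edgeR. Channels, calcium-handling proteins, neurohormonal receptors, collagens and nuclear receptors of metabolism were among the genes that rose. Ribosomal protein, chromatin protein, cell cycle and fetal sarcomere genes were among those that fell. The median log2 fold change of all genes tested was -0.02. Without scaling factors it was -0.21, and the higher share of the calls was 24.8% in place of 43.2%. Leaving out control P6 library 2 left 580 higher and 1176 lower genes, control P6 library 3 left 735 and 1325, and without control P10 library 3 the higher genes numbered 913. Of the 172 genes named by rule, 155 were called, and 89 of these kept the call whichever library was left out. The 3 and 3 libraries did not overlap in CPM for 5983 of the 14756 genes (40.5%), and for 3437 of the 3629 called genes. For genes named for the size of their change, such as Kcnd2, Fgf14, Thrb, Meg3 and Hmgb2, no overlap was a condition of being named. CPM values below are scaled with TMM factors, and fold changes are on the log2 scale, P10 over P6, with their standard errors.

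**Figure D1:**
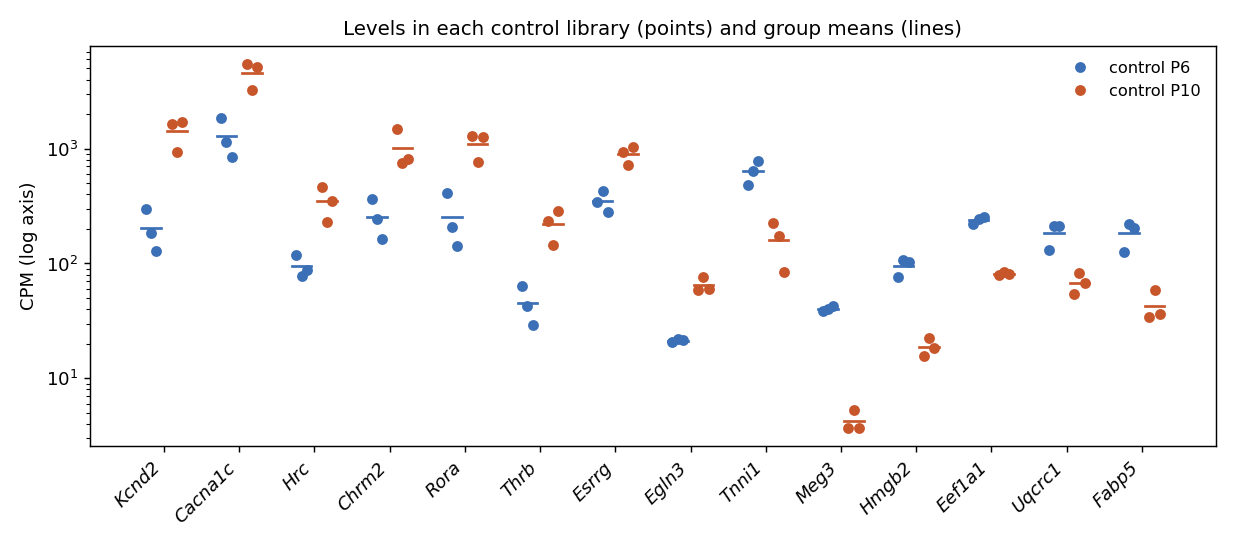
CPM (log axis) of 14 called genes in each of the 3 control P6 and 3 control P10 libraries, with lines at the group means. The ages do not overlap for any of them, as for 40.5% of all genes tested, and for some this was a condition of being named. Kcnd2 lies at 127 to 299.6 CPM at P6 and 945 to 1697 at P10, Meg3 at 38.7 to 42.2 and 3.69 to 5.27.

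Many potassium channel genes of the cardiac action potential rose. Of 20 potassium channel genes tested, 12 were higher at P10 and 0 lower, with a median log2 of 0.98. Kcnd2 (chr6:21215503-21729805, GRCm38, plus strand), the pore of the fast transient outward current, was at 299.6, 186 and 127 CPM in the P6 libraries and 1653, 945 and 1697 CPM in the P10 libraries. The log2 fold change was 2.81 ± 0.34 (edgeR adjusted p = 0.000116). Its relative Kcnd3 went from 11.05, 7.99 and 10.2 CPM to 20.8, 25.1 and 43.4 CPM, a change of 1.64 ± 0.30 (edgeR adjusted p = 0.00178). Kcnip2, a subunit that carries these channels to the membrane, rose by 1.10, and Kcnj3 and Kcnj5, which form the acetylcholine-activated potassium channel, rose by 1.33 and 1.34. Of 10 sodium and pacemaker channel genes, 5 were higher and 0 lower, among them the pacemaker channel gene Hcn2 (1.62 ± 0.33). Fgf14, an intracellular modulator of sodium channels, moved from 164, 91.3 and 73.3 CPM to 838, 362 and 575 CPM. Its relative Fgf13 overlapped between the ages, and its call was lost without control P6 library 2, control P6 library 3 or control P10 library 1. The potassium channel count was 7 without control P6 library 2, and 9 of 20 were higher in cardiomyocyte-marker barcodes. Of 10 sodium and pacemaker channel genes in those barcodes, 4 were higher and 1 lower.

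The calcium handling list held 12 genes higher and 2 lower of 23 tested, at a median of 0.73, and 4 were higher without control P6 library 2. In cardiomyocyte-marker barcodes 5 of 22 were higher and 3 lower (median 0.42), and in fibroblast-marker barcodes 11 of 18 were higher and 1 lower (median 0.98). The lower count over all kept barcodes was 0 or 1 without control P6 library 2, control P6 library 3, control P10 library 1 or control P10 library 3. Cacna1c, the pore-forming L-type channel subunit, was at 1854, 1134 and 844 CPM at P6 and 5449.6, 3235 and 5124 CPM at P10. The P6 and P10 libraries did not overlap, and the change was 1.85 ± 0.34 (edgeR adjusted p = 0.00178). Hrc, a calcium-binding protein inside the sarcoplasmic reticulum, rose from 94.9 ± 21.2 to 349 ± 120.1 CPM (SD, n = 3), with a log2 fold change of 1.88. The release channel gene Ryr2 and the calcium pump gene Atp2a2 each rose by 1.39, with calls that were lost without control P6 library 2. Jph2, which ties the T-tubule to the sarcoplasmic reticulum, rose by 1.02, and the junctional proteins Trdn and Casq2 by 0.74 and 0.79. In the opposite direction, Cacna1h, a T-type calcium channel of the fetal heart, fell from 11.5, 11.98 and 17.7 CPM to 1.85, 5.48 and 7.95 CPM, a call that was lost without control P6 library 3.

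Of 24 neurohormonal receptors and messengers tested, 11 were higher and 0 lower, at a median of 0.54. Chrm2, the muscarinic receptor through which the vagus slows the heart, was at 364, 243 and 163 CPM at P6 and 1483, 748 and 819 CPM at P10, a change of 1.99 ± 0.34 (edgeR adjusted p = 0.000937). Adra1a, an alpha-adrenergic receptor, was near the lower limit at P6 with 6.44, 4.79 and 4.43 CPM and reached 35.5, 9.69 and 23.8 CPM at P10. The groups did not overlap for either gene, although Adra1a in control P10 library 2 lay close to its P6 values. Corin, the protease that activates natriuretic peptides, rose by 1.72 ± 0.29, and Pde3a, a phosphodiesterase that breaks down cyclic AMP, by 1.43 ± 0.28. The count was 6 without control P6 library 2, and 10 of 24 were higher in cardiomyocyte-marker barcodes.

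The sarcomere changed in a few members. Of 19 fetal and neonatal genes tested, 8 were lower and 1 higher, at a median of -0.64. Tnni1 (chr1:135779434-135810989, plus strand), the slow skeletal isoform of troponin I used before birth, fell from 483, 636 and 788 CPM to 226, 173 and 85.04 CPM, a change of -1.98 ± 0.32 (edgeR adjusted p = 0.000750). All P10 libraries lay below all P6 libraries. Its adult counterpart Tnni3 was at 1382, 1991 and 2293 CPM and then 2769, 2542 and 2064 CPM, which overlapped (0.38 ± 0.28, edgeR adjusted p = 0.336). The RNA-binding protein gene Igf2bp1 fell by 1.88 and the tropomyosin gene Tpm2 by 1.60 on the log2 scale, while Acta2, the smooth muscle actin, went against the list and rose by 1.55 ± 0.36. The fetal list held 4 lower genes without control P6 library 2, control P6 library 3, control P10 library 1 or control P10 library 3. In cardiomyocyte-marker barcodes it had 6 lower and 1 higher of 18. Of 25 mature sarcomere genes, 4 were higher and 1 lower. Ttn, the giant spring of the sarcomere, was at 6256, 6858 and 4950.5 CPM at P6 and 14853, 8887 and 17402 CPM at P10, a rise of 1.19 ± 0.35 (edgeR adjusted p = 0.0236) whose call was lost without control P6 library 2, control P6 library 3, control P10 library 1 or control P10 library 3. In barcodes led by cardiomyocyte markers, Ttn being among those markers, its change was 0.77 with an edgeR adjusted p of 0.0967. The myosin heavy chain genes overlapped between the ages: Myh6, the adult form, changed by 0.11 ± 0.31 and Myh7, the fetal form, by -0.25 ± 0.24. In the same barcodes the mature sarcomere list had 0 higher and 1 lower of 25 by edgeR, with a median of -0.17 against 0.20 over all kept barcodes, and in fibroblast-marker barcodes 8 of 23 were higher (median 0.50). Over all kept barcodes, 2 of the mature sarcomere genes were higher without control P10 library 1 or control P6 library 2, and 1 without control P10 library 3 or control P6 library 3.

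At the intercalated disc, which joins cardiomyocytes end to end, 7 of 17 genes were higher and 0 lower. In cardiomyocyte-marker barcodes 1 of 17 was higher, and in fibroblast-marker barcodes 6 of 14 were. Cdh2, the N-cadherin of this junction, rose from 433, 302 and 268 CPM to 1186, 584 and 836 CPM, a change of 1.38 ± 0.29 (edgeR adjusted p = 0.00399). The count was less stable than this gene: 3 were higher without control P10 library 1, 2 without control P10 library 3, and 1 without control P6 library 2 or control P6 library 3. Among cardiac transcription factors, 7 of 23 were higher and 2 lower, and 4 were higher in cardiomyocyte-marker barcodes. Hey2, a Notch target of compact myocardium, fell from 26.7, 25.03 and 29.3 CPM to 11.1, 11.8 and 10.6 CPM, with a gap between the ages wider than the spread within either (-1.27 ± 0.23, edgeR adjusted p = 0.00147). Prox1 rose by 1.00 and Ikzf2 by 1.01. The count of higher factors was 12 without control P6 library 1, 2 without control P6 library 2 or control P10 library 3, and 3 without control P6 library 3.

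In the list of mitochondrial regulators and dynamics, 12 of 32 were higher, 1 lower and 19 not called, at a median of 0.47. In cardiomyocyte-marker barcodes 8 were higher. Thrb, the thyroid hormone receptor beta, was at 63.97, 42.9 and 28.96 CPM at P6 and 235, 144 and 284 CPM at P10, a change of 2.30 ± 0.31 (edgeR adjusted p = 0.000200). Esrrg (chr1:187608791-188214885, plus strand), which codes for ERRγ, rose from 341, 426 and 278 CPM to 928, 723 and 1027 CPM, by 1.36 ± 0.25 (edgeR adjusted p = 0.00161). Esrrg did not overlap between the ages, and for both receptors the call held with any library left out. Their relatives differed: Thra, the other thyroid hormone receptor, was at 174 ± 18.01 and 177 ± 4.83 CPM (SD, n = 3), and Esrra, for which all the mice were heterozygous, was at 73.5 ± 12.03 and 72.6 ± 9.68 CPM. Ppargc1a, the coactivator PGC-1α, was at 804, 271 and 269 CPM and then 1639, 469.5 and 493 CPM. The groups overlapped (0.95 ± 0.49, edgeR adjusted p = 0.169), and without control P6 library 1 the change was 1.72 and was called, as was 1.09 without a low-count filter. The count was 5 without control P6 library 2 and 7 without control P6 library 3.

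Of 33 genes of fatty acid oxidation and lipid use, 6 were higher and 0 lower, at a median of 0.40. Lpl, which frees fatty acids from circulating triglyceride, rose from 727, 559.9 and 727 CPM to 2094, 1417 and 1339 CPM (1.27 ± 0.26, edgeR adjusted p = 0.00364). Cpt2, of the inner mitochondrial membrane carnitine shuttle, rose by 0.97 ± 0.19, whereas Cpt1b, the outer membrane step, was at 194 ± 21.7 and 181 ± 16.03 CPM (SD, n = 3). The fatty acid transporter gene Cd36 changed by 0.74 ± 0.27, with an edgeR adjusted p of 0.0576, which was over the threshold. It was called without control P6 library 1 or control P10 library 2, by DESeq2 (adjusted p = 0.0173), without a low-count filter, with barcodes under the minimum of 500 UMIs included, and in the cardiomyocyte-marker (edgeR adjusted p = 0.0322) and fibroblast-marker barcodes (edgeR adjusted p = 0.0145). In the TCA cycle and pyruvate dehydrogenase list, 6 of 28 were higher and 1 lower, with Got1, of the malate-aspartate shuttle, at 1.03 and the E1 subunit genes of pyruvate dehydrogenase apart, Pdha1 at 0.93 and Pdhb at -1.08. Pdk4, the kinase that holds back pyruvate dehydrogenase, rose by 0.81. Each of these lists had 3 higher genes without control P6 library 2. In cardiomyocyte-marker barcodes the fatty acid list had 3 higher and 1 lower, and the TCA list 2 higher and 1 lower.

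In the respiratory chain, 2 of 55 nuclear-encoded genes were higher and 10 lower, which is 18.2% against 14.0% lower over all genes, at a median of -0.07. Uqcrc1, a core subunit of complex III, fell from 130.2, 212 and 213 CPM to 54.5, 82.8 and 67.3 CPM (-1.43 ± 0.24, edgeR adjusted p = 0.000961). Cox7c of complex IV fell by 1.42, Ndufs3 of complex I by 1.77 and Atp5l of ATP synthase by 1.33 on the log2 scale. The lower count was 5 without control P10 library 1 or control P6 library 3, 6 without control P10 library 3 and 4 without control P6 library 2, and the higher count was 0 or 1 with any library left out. In cardiomyocyte-marker barcodes 0 of 55 were higher and 13 lower by edgeR. The glycolysis and glucose uptake list lay near the shares over all genes, with 3 higher and 3 lower of 28 (10.7% each, against 10.6% and 14.0%). It held the hexokinase gene Hk2 at 0.99 and the enolase gene Eno1 at -1.62. Without control P6 library 2, which ended the call of Hk2, the list had 0 higher and 1 lower by edgeR. Of 20 insulin and IGF signalling genes, 8 were higher and 0 lower. In cardiomyocyte-marker barcodes 10 of 20 were higher, and in fibroblast-marker barcodes 2 were higher and 2 lower. They included the insulin receptor substrate Irs1, at 41.9, 35.9 and 35.4 CPM at P6 and 101, 69.5 and 77.4 CPM at P10, and the PI3-kinase subunit Pik3r1 at 1.06 ± 0.20.

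**Figure D2:**
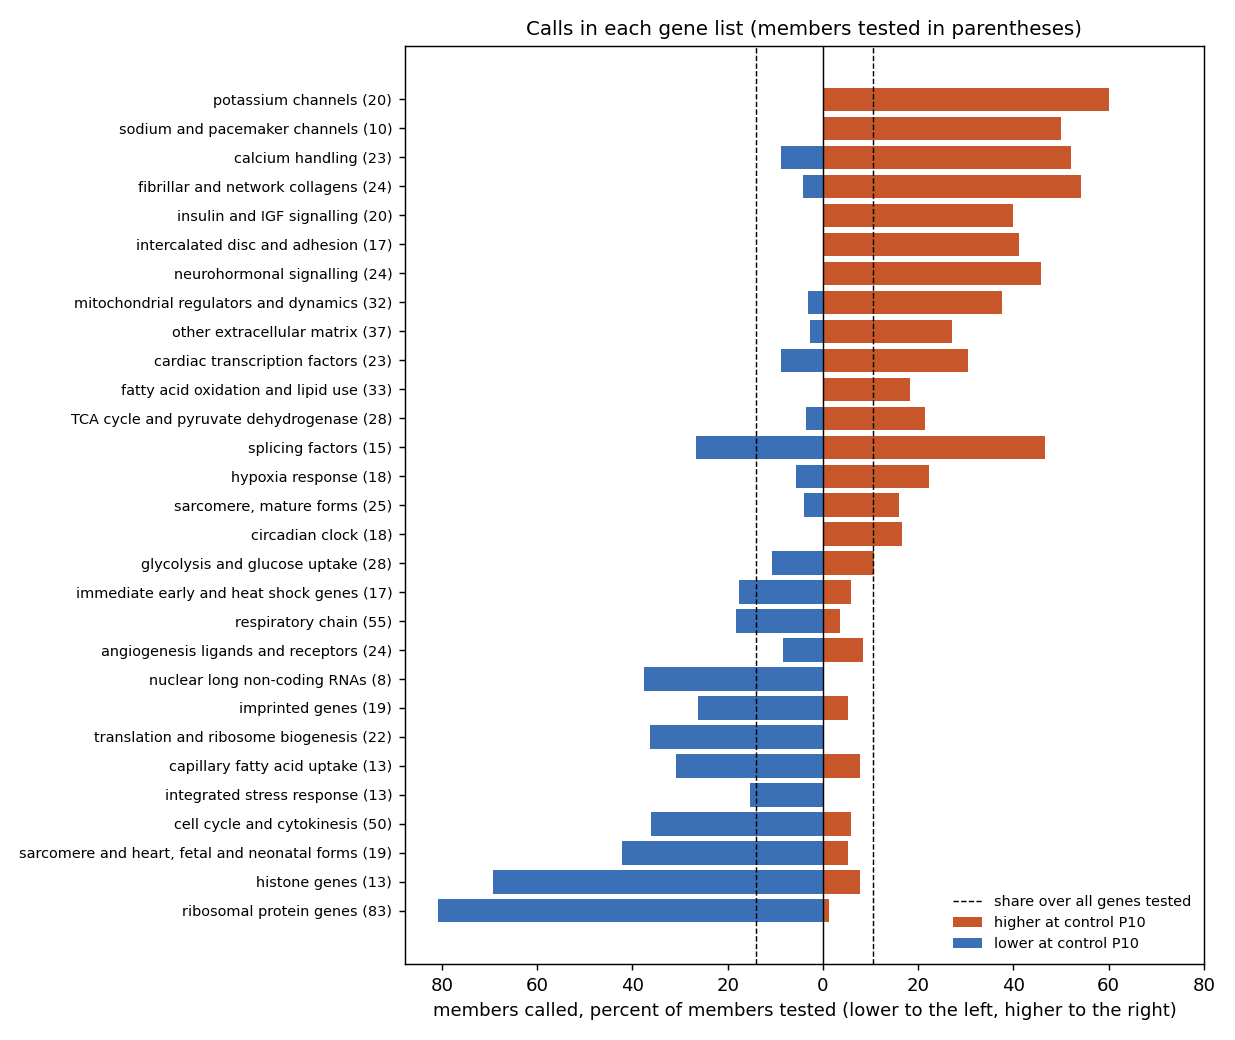
Percent of tested members called higher (right) and lower (left) at control P10 in 29 gene lists, ordered by median log2 fold change, with dashed lines at 10.6% and 14.0%, the shares over all 14756 genes tested. Potassium channels have 12 of 20 members higher and ribosomal protein genes 67 of 83 lower.

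Among other genes named for the size of their rise, Pdzrn4, a PDZ and RING finger protein gene, moved from 39.1, 50.6 and 41.6 CPM to 409, 371 and 460.4 CPM (3.23 ± 0.23, edgeR adjusted p = 5.89e-06). Slc13a3, a dicarboxylate transporter, was at 10.6, 17.6 and 21.5 CPM and then, evenly across libraries, at 109.9, 103 and 104 CPM. Mylk4, a myosin light chain kinase, rose by 2.68 and Rgs7, a regulator of G protein signalling, by 2.47. Cdk8, a kinase of the Mediator complex, rose by 2.46 ± 0.44, but its P10 libraries spread from 159.9 to 854 CPM. Of 18 clock genes, 3 were higher (16.7%, against 10.6% over all genes) and 0 lower, at a median of 0.14. The nuclear receptor Rora led them, at 412, 207 and 143 CPM and then 1292, 767 and 1254 CPM (2.12 ± 0.36, edgeR adjusted p = 0.000943). The oxygen sensor Egln3 was nearly constant at P6, at 20.7, 21.8 and 21.5 CPM, and then 58.6, 76.5 and 60.4 CPM (1.61 ± 0.21, edgeR adjusted p = 0.000155). The higher clock count was 6 without control P6 library 1 and 2 without control P6 library 2, and 1 clock gene was lower without control P10 library 1.

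Of 50 cell cycle and cytokinesis genes, 18 were lower, 3 higher and 29 not called, at a median of -0.64. Aurkb, a kinase of chromosome segregation and cytokinesis, was at 13.3, 22.6 and 26.9 CPM at P6 and 2.31, 10.5 and 5.56 CPM at P10, a change of -1.67 ± 0.39 (edgeR adjusted p = 0.00783), and its call held with any library left out. Plk1, a mitotic kinase, fell by 1.35, Ccnb1, a mitotic cyclin, by 1.55, and Kif11, a spindle motor, by 1.64 on the log2 scale, but each of these calls was lost without control P6 library 2, control P6 library 3 or control P10 library 3, and in some cases another. The cyclin gene Ccnd2 and its partner Cdk6, of the G1 phase, rose by 0.93 and 0.72, with calls that were lost without control P6 library 2, among others. Mki67, a marker of cycling cells, was at 214, 269.7 and 226 CPM and then 156, 210.3 and 213 CPM (-0.29 ± 0.21, edgeR adjusted p = 0.336). Top2a, which untangles replicated DNA, changed by -0.61 ± 0.22 (edgeR adjusted p = 0.0586) and was called without control P6 library 1. The lower count depended on the libraries: 29 without control P6 library 1, 9 without control P10 library 1, and 5 without control P6 library 2, control P6 library 3 or control P10 library 3. In cardiomyocyte-marker barcodes 16 of 49 were lower and 4 higher. The higher count was 0 without control P6 library 2 and 1 without control P6 library 3, control P10 library 1 or control P10 library 3.

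Promoters of mitotic genes often carry CCAAT boxes, bound by NF-Y, and CHR elements with the letters TTTGAA, bound by the DREAM complex that silences them in resting cells. The RefSeq promoters (GRCm38.p6, 250 bases before the start and 50 from it) of the 3 mitotic genes above that have an entry are shown, with CCAAT and TTTGAA on either strand in capitals, at chr7:122159185-122159484 (plus strand), chr13:100786437-100786736 (minus strand) and chr19:37376132-37376431 (plus strand).
Plk1: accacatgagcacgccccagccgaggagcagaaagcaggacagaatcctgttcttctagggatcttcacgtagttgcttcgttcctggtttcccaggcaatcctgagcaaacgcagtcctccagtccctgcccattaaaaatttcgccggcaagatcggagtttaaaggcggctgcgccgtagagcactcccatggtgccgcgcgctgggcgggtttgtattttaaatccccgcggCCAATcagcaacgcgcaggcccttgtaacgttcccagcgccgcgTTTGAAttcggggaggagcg
Ccnb1: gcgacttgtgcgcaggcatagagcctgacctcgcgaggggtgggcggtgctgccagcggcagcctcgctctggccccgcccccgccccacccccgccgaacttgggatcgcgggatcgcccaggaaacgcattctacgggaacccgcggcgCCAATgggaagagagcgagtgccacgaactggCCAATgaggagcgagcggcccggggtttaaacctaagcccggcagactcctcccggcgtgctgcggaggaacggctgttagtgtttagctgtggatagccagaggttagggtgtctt
Kif11: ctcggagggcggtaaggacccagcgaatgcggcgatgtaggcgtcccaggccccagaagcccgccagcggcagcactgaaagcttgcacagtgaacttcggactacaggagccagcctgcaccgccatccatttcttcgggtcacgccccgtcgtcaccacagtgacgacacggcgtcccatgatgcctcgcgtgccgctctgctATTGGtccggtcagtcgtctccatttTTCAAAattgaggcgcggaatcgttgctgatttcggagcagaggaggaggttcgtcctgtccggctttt
CCAAT was found in 12 of the 17 lower cell cycle genes with a promoter entry (70.6%) and in 18 of the 25 list members with an entry that were not called lower (72.0%), against 41.1% of all 27025 genes with an entry. TTTGAA was found in 7 (41.2%), 9 (36.0%) and 20.2% of the same sets. The shares were close in members that fell and in those not called lower, and a match is a description of the sequence only.

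In the list of histone and other chromatin protein genes, 9 of 13 were lower and 1 higher, at a median of -0.88. Hmgb2, a DNA-bending protein, fell from 76.4, 108 and 102 CPM to 15.7, 22.3 and 18.5 CPM (-2.32 ± 0.23, edgeR adjusted p = 2.65e-05). Hmgn2, a nucleosome-binding protein, fell by 2.00 and the histone variant gene H2afz by 1.88 on the log2 scale. Without control P6 library 2, control P6 library 3 or control P10 library 3, 5 were lower. Of 19 imprinted genes, 5 were lower and 1 higher. The list turned in cardiomyocyte-marker barcodes, with 4 higher and 1 lower of 18 (median 0.16), while in fibroblast-marker barcodes 0 of 17 were higher and 5 lower by edgeR (median -0.45). Meg3, the maternally expressed long non-coding RNA of the Dlk1 domain, was at 38.7, 40.5 and 42.2 CPM at P6 and 3.69, 5.27 and 3.71 CPM at P10, the largest fall among the genes named for size after the clone-named RP23-157N5.1 at -4.40 (-3.21 ± 0.26, edgeR adjusted p = 1.70e-05). Mest fell by 1.02, and H19 by 0.91 with a call that was lost without control P6 library 2, control P6 library 3, control P10 library 2 or control P10 library 3. Igf2, the fetal growth factor beside H19, was at 559 ± 55.2 and 451 ± 84.9 CPM (SD, n = 3), with overlap. The count of lower imprinted genes was 2 without control P6 library 2 and 3 without control P6 library 3 or control P10 library 3.

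Most ribosomal protein genes fell: 67 of 83 tested were lower and 1 higher, at a median of -1.24. Together they took 1.18%, 1.58% and 1.69% of UMIs at P6 and 0.615%, 0.901% and 0.580% at P10, with no overlap (exact two-sided permutation p = 0.1, the smallest that 3 against 3 can give). Rps27a, a small-subunit protein made as a fusion with ubiquitin, was at 11.5, 21.6 and 23.8 CPM and then 1.38, 0.843 and 2.12 CPM, which at P10 were 3, 4 and 8 UMIs. Rpl3l, the striated-muscle form of Rpl3, was the exception, at 13.5 ± 1.75 and 28.7 ± 13.9 CPM (SD, n = 3, edgeR adjusted p = 0.0215), with a call that was lost without control P6 library 2 or control P10 library 3. Of 22 genes of translation and ribosome biogenesis, 8 were lower and 0 higher. Eef1a1, the elongation factor that brings tRNA to the ribosome, fell from 219.985, 245 and 253 CPM to 79.4, 85.1 and 80.5 CPM (-1.55 ± 0.19, edgeR adjusted p = 0.000133). Gas5, a host gene of small nucleolar RNAs, fell by 1.51. Counts of ribosomal protein genes are uncertain gene by gene, since processed pseudogenes carry near-identical sequence. Most processed pseudogenes fell too: 527 of 573 tested were lower and 5 higher, at a median of -2.58.

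Direction went with the genomic span of the gene. Among 14346 genes with a span, divided into 5 groups of equal size, the shortest group (up to 7.085 kb) had a median log2 of -0.52, with 5.92% higher and 38.3% lower. The longest group (from 87.8 kb) had a median of 0.35, with 26.6% higher and 8.19% lower. The contrast was present within barcodes led by cardiomyocyte markers (-0.53 and 0.34), within barcodes led by fibroblast markers (-0.71 and 0.48), and within barcodes with at least 3% Malat1 (-0.61 and 0.45). The lists that rose hold many long genes: of potassium channel genes, 7 of 8 in the longest group and 5 of 12 others were higher. For neurohormonal genes these counts were 10 of 12 and 1 of 12, and for calcium handling 7 of 10 and 5 of 13. Some lists that fell hold many short genes: 74 of the 83 ribosomal protein genes were in the shortest group, and 64 of these were lower. In that group 6 of 8 histone and chromatin protein genes and 5 of 10 translation genes were lower, against 38.3% of its genes of every class. The shortest group held 6 of the 50 cell cycle genes and 6 of the 19 fetal sarcomere genes. It had 3 of the 18 lower cell cycle genes and 2 of the 8 lower fetal sarcomere genes, so most of these falls lay outside it. Splicing factors divided completely, with 7 of 7 long members higher, among them Rbm20 (1.45), which sets titin splicing, and Celf2 (1.17), and 0 of 8 others higher and 4 lower, among them Srsf2 and Srsf10 at -1.11 each. Of the 4 lower splicing factors, 2 were lower without control P10 library 2, control P10 library 3, control P6 library 2 or control P6 library 3. Of the higher ones, 3 were higher without control P6 library 2. The part of gene span in the list results was not tested beyond these counts. Hrc, a short gene of 3685 bases, and Meg3, of 30726 bases, are examples of calls in each direction outside the longest group.

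**Figure D3:**
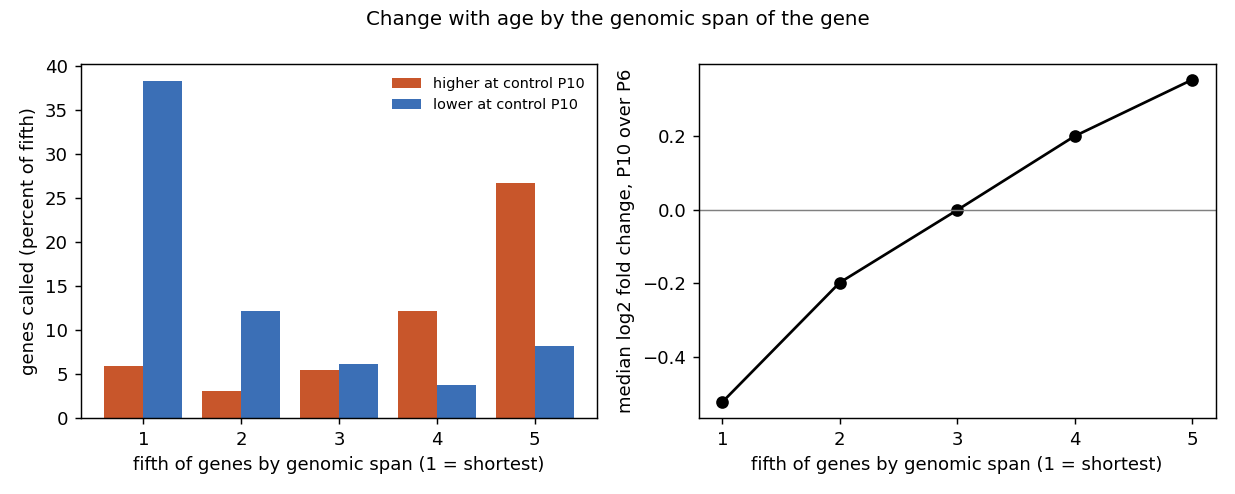
Left, percent of genes called higher and lower at control P10 in 5 groups of genes by genomic span; right, the median log2 fold change per group, from -0.52 in the shortest to 0.35 in the longest. The share of lower genes drops from 38.3% to 8.19% and that of higher genes rises from 5.92% to 26.6%.

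Many collagen genes rose in the library sums. Of 24 collagen genes, 13 were higher and 1 lower, at a median of 0.64. Col15a1, a basement membrane collagen, rose from 132, 108 and 142 CPM to 562, 272 and 338 CPM (1.62 ± 0.27, edgeR adjusted p = 0.000872), and Col8a1, a short-chain collagen, from 17.9, 23.7 and 22.5 CPM to 57.7, 63.01 and 69.1 CPM (1.56 ± 0.21, edgeR adjusted p = 0.000196). For both genes the ages were well apart. The main fibrillar genes Col1a1 (0.43 ± 0.25) and Col3a1 (0.46 ± 0.27) overlapped. The count was 7 without control P10 library 1, control P6 library 2 or control P6 library 3. Of 37 other matrix genes, 10 were higher and 1 lower, with Lum, a collagen-binding proteoglycan, at 1.24 ± 0.24. This count was 4 without control P6 library 2. In cardiomyocyte-marker barcodes 29 of 35 were higher and 1 lower (median 1.33), but in fibroblast-marker barcodes 2 of 37 were higher and 5 lower (median -0.13). Fibroblast markers, some of them collagens, also rose over all kept barcodes, with 7 of 11 higher and 0 lower (median 0.74). Their summed mean share was 0.533% at P6 and 0.783% at P10. Barcodes led by them made up 14.5%, 18.3% and 18.8% at P6 and 9.77%, 19.4% and 8.46% at P10. Their part in the collagen rise was not tested.

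The collagen rise depended on the barcodes read. In barcodes led by cardiomyocyte markers, 17 of 24 collagen genes were higher and 0 lower, at a median of 1.68, against 10.6% of all genes there. In barcodes led by fibroblast markers, the fibroblast being the main maker of these proteins, 5 were higher and 1 lower, at a median of 0.06, against 6.6% and 7.46% of all genes there. Markers of other cell types moved with the collagens in the cardiomyocyte-marker barcodes: 10 of 11 fibroblast markers were higher (median 1.73), 8 of 9 macrophage markers (2.12), 8 of 11 endothelial markers (1.03) and 5 of 8 pericyte markers (1.04). All of these markers also served to assign the barcodes, so their counts depend on that choice and are a description only. Col15a1 changed by 2.64 in the former and 1.27 in the latter, and Col6a3 by 2.12 and 1.02. Col1a1 and Col3a1, which also served to assign the barcodes, were at 1.73 and 1.70 in the former and -0.34 and -0.33 in the latter. Genes of cardiomyocytes also changed in both subsets: Cacna1c changed by 1.46 in cardiomyocyte-led and 1.74 in fibroblast-led barcodes, and Atp2a2, the cardiac calcium pump, by 1.05 and 1.55. The difference between the subsets was not tested, nor was the part in it of RNA shared between droplets.

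**Figure D4:**
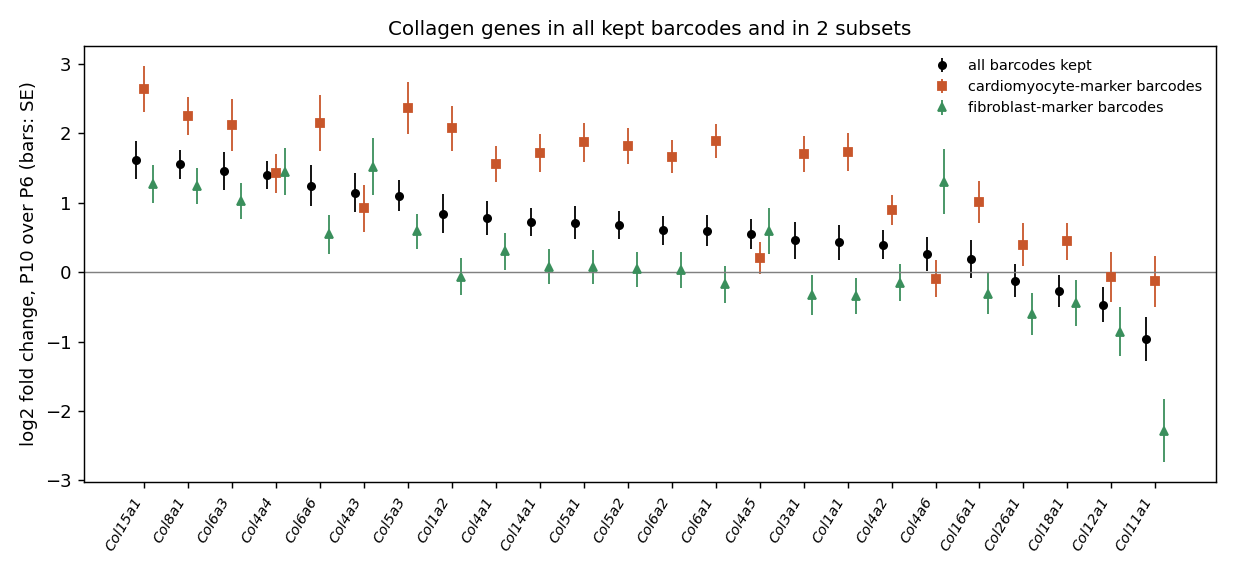
Log2 fold change (P10 over P6, bars show the SE) of 24 collagen genes in all kept barcodes (circles), in cardiomyocyte-marker barcodes (squares) and in fibroblast-marker barcodes (triangles). Squares lie above triangles for 20 of the 24 genes, with medians of 1.68 and 0.06.

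Most macrophage marker genes rose in the library sums. Of 9 macrophage markers tested, 8 were higher and 0 lower, at a median of 1.31. Mrc1, the mannose receptor of resident macrophages, was at 23.01, 26.1 and 14.7 CPM at P6 and 102, 53.7 and 70.5 CPM at P10 (1.81 ± 0.28, edgeR adjusted p = 0.000499). F13a1, a coagulation factor subunit made by these cells, was at 16.6, 11.4 and 8.52 CPM and then 51.7, 51.4 and 54.04 CPM (2.13 ± 0.25, edgeR adjusted p = 9.13e-05). The complement gene C1qa rose by 1.94, while Mertk, the apoptotic cell receptor, was not called (0.18 ± 0.21). The summed marker share was 0.0143% to 0.0147% at P6 and 0.0274% to 0.0345% at P10. Barcodes led by macrophage markers numbered 10 of 1882, 13 of 2641 and 7 of 2485 at P6 and 0 of 2077, 8 of 3875 and 2 of 3619 at P10, where the count of 0 allows up to 0.144% by counting error alone.

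**Figure D5:**
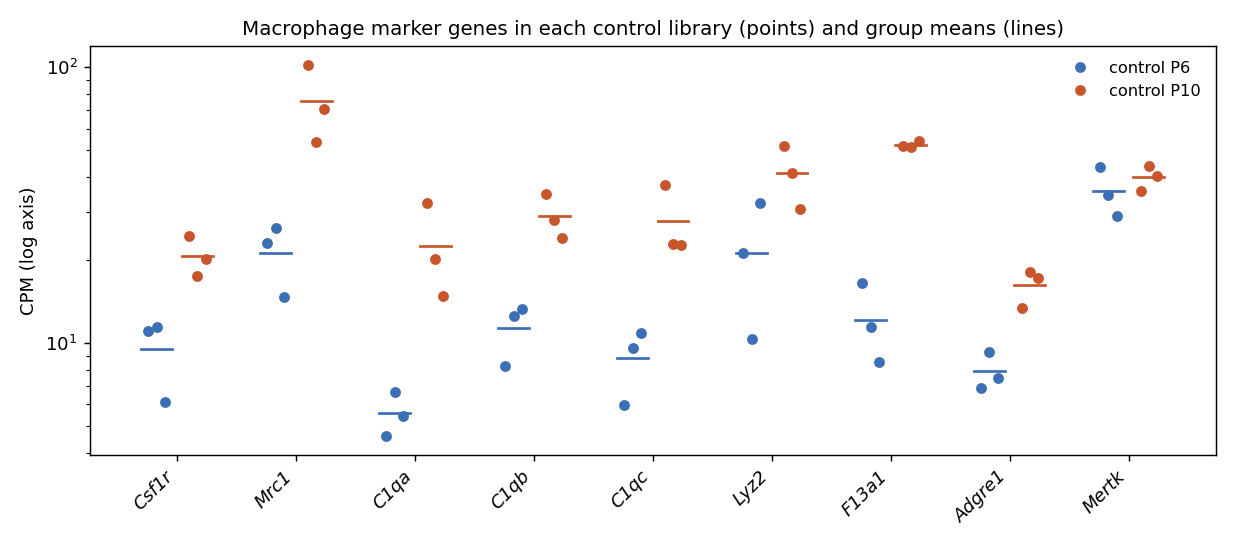
CPM (log axis) of the 9 tested macrophage marker genes in each control library, with lines at the group means. F13a1 lies at 8.52 to 16.6 CPM at P6 and 51.4 to 54.04 at P10, and Mertk overlaps.

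Endothelial markers were mixed. Of 11 endothelial markers, 1 was higher and 1 lower (9.09% each, against 10.6% and 14.0% over all genes), at a median of 0.12. Their summed share was 0.337%, 0.230% and 0.248% at P6 and 0.181%, 0.233% and 0.229% at P10, which overlapped. Barcodes led by these markers made up 12.4%, 8.37% and 6.08% at P6 and 1.16%, 2.99% and 1.11% at P10. Egfl7, a secreted endothelial factor, fell from 304, 241 and 234 CPM to 81.7, 131 and 96.96 CPM (-1.33 ± 0.23, edgeR adjusted p = 0.00107). In the list of capillary fatty acid uptake, 4 of 13 were lower and 1 higher. Fabp5, a fatty acid binding protein of capillaries, fell from 126, 219 and 204 CPM to 34.2, 58.6 and 36.3 CPM (-2.08 ± 0.27, edgeR adjusted p = 0.000172). Gpihbp1, which holds lipoprotein lipase on the capillary wall, fell by 0.98 on the log2 scale, in contrast to Lpl itself. In cardiomyocyte-marker barcodes Fabp5 was at -1.41 and Gpihbp1 at 0.03, and the medians of the uptake and angiogenesis lists were 0.50 and 0.68 there, against -0.39 and -0.08 over all kept barcodes. Without control P10 library 3, 2 of the uptake list were lower, and the higher count was 4 without control P6 library 1 and 2 without control P10 library 2. Apln, a ligand of the sprouting endothelium, fell from 32.7, 31.1 and 33.05 CPM to 12.9, 13.1 and 17.7 CPM (-1.14 ± 0.22, edgeR adjusted p = 0.00270). It was 1 of 2 lower genes among 24 angiogenesis ligands and receptors, of which 2 were higher. Both shares of this list (8.33% each) were below those over all genes, 10.6% higher and 14.0% lower. The higher count was 7 without control P6 library 1, 1 without control P10 library 3, and 0 by edgeR without control P6 library 2, control P6 library 3 or control P10 library 1.

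Of 18 hypoxia response genes, 4 were higher (22.2%, against 10.6% over all genes) and 1 lower. Of 17 immediate early and heat shock genes, 1 was higher and 3 lower (17.6%, against 14.0% over all genes), with the small heat shock protein gene Hspb1 at -1.77 ± 0.35. Of 13 integrated stress response genes, 0 were higher and 2 lower by edgeR (15.4%). Of 8 nuclear long non-coding RNAs, 3 were lower and 0 higher by edgeR: Meg3, Gas5 and Neat1, a scaffold of nuclear paraspeckles, which changed by -0.80 with a call that was lost without control P6 library 2, control P6 library 3, control P10 library 1 or control P10 library 3. With a library left out, the lower stress response count ranged from 0 (without control P6 library 2 or control P10 library 3) to 7 (without control P6 library 1) by edgeR. The lower immediate early and heat shock count ranged from 1 (without control P6 library 2 or control P10 library 3) to 6 (without control P10 library 1), and its higher count reached 4 without control P10 library 2. The higher hypoxia count ranged from 1 (without control P6 library 2) to 6 (without control P6 library 1).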

How the data were processed

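Nuclei of mouse ventricles were profiled by sNucDrop-Seq. The authors deposited UMI counts as whole numbers, 1 for each gene and barcode. Per the submitters' processing notes the authors used STAR 2.5.2a and mm10, and per the file names exonic and intronic reads were counted together. The annotation, strand setting and barcode-keeping rule are not given in the sources used here. Counts were summed per library as described above, and 3 libraries were compared with 3 in edgeR 4.0.16 (run in R 4.3.3) by its quasi-likelihood method, with group as the only term, TMM factors, filterByExpr and Benjamini-Hochberg adjustment over all 14756 genes. The knockout libraries were left out of the fit. The labels do not say that libraries came from separate animals, so p-values measure the spread between libraries, which may be technical. No doublet caller was run. A barcode's leading marker class was the class with most marker UMIs (at least 2, no tie). Gene spans are from GENCODE vM21, in which 35510 of 37840 symbols matched.

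Members and gene lists were chosen with earlier results of these data known. Named genes were the 12 largest called changes per direction with no overlap and a mean of at least 30 CPM in the higher group (predicted, pseudogene-type, ribosomal protein, mitochondrial and Y-linked names left out), up to 4 called members per list and direction, and fixed genes of interest. Members named beyond these (such as Kcnip2, Kcnj3, Jph2, Trdn, Casq2 and the marker genes) were chosen after their values were seen. On simulated counts for this comparison with 14756 genes, the test recovered 50 of 50 genes raised 4-fold, 25 of 50 raised 2-fold, 11 of 42 lowered 2-fold and 47 of 49 lowered 4-fold, with 10 false calls. Changed genes that did not pass the low-count filter again are not in these totals. All other genes were simulated as unchanged, whereas 24.6% were called in the data, so the simulation does not give the error rates under so wide a shift. The self-test used seed 1. The alternatives were other scaling (RLE, none), other low-count filters, DESeq2 1.42.0, all 9 libraries, a replicate block, other choices of barcodes, mitochondrial genes kept, thinning, ribosomal protein genes left out and each library left out. Fibroblast-marker barcodes and Malat1 left out were added after seeing the data. Intervals and limits cover counting error only.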

Additional observations from a re-analysis of the deposited data

Results flagged for a closer look

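Mitochondrially encoded RNA, which the comparison leaves out, lay above its level in the control P6 libraries in every control P10 library: it took 28.4%, 8.14% and 16.2% of the UMIs of kept barcodes in control P10 libraries 1 to 3, against 0.876% to 2.33% at control P6. With these genes kept in the sums, 8 of 13 tested were higher at control P10 and 0 lower by edgeR. The rise was uneven among them. The ribosomal RNA genes mt-Rnr2 and mt-Rnr1 changed by 4.69 and 7.19 on the log2 scale. Smaller rises were called for mt-Nd5 (2.43), mt-Nd6 (1.59), mt-Nd2 (1.51) and mt-Nd4 (1.12), but not for mt-Nd1 (0.69) or mt-Nd3 (0.06). By contrast, mt-Cytb, a subunit of complex III, changed by 0.41 (edgeR adjusted p = 0.335) and mt-Co1, a subunit of complex IV, by -0.53 (edgeR adjusted p = 0.237). In control P10 library 1, mt-Rnr2 alone took 24.7% of UMIs, against 0.405% to 1.56% at control P6. The cause was not tested.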

How the results depend on the processing

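With a library left out, the higher count ranged from 580 to 2322, the lower count from 1176 to 2773 and the total from 1756 to 5095, the low ends without control P6 library 2 and the high ends without control P6 library 1. The higher count was 889 without scaling factors, 2517 without a low-count filter and 903 in barcodes of at least 1000 UMIs, where the total was 2284. Fibroblast-marker barcodes gave 467 higher, 528 lower and 995 in all, from 7081 genes tested. Deviations of same-numbered libraries correlated at 0.11, 0.11 and -0.28, and not every library correlated best with its own number. Each deviation was taken from a mean of 3 libraries, so these values cannot decide whether the numbers pair the libraries. A replicate block gave 1648 higher and 2199 lower. Under the block, Ppargc1a was called at 0.90 (edgeR adjusted p = 0.0103) and Cd36 at 0.77 (edgeR adjusted p = 0.0339). DESeq2 gave 1611 and 1847.

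Signs that changed were of genes near 0 or of genes read in other barcodes. Without scaling factors Myh6 was at -0.10 and Thra at -0.17. Without a filter Esrra was at 0.11 and Cpt1b at 0.029. With at least 20 UMIs in 3 libraries Thra was at -0.029, and in barcodes of at least 1000 UMIs Esrra was at 0.049. With Malat1 at 3% or more, Myh6 was at -0.14 and Thra at -0.11. In cardiomyocyte-marker barcodes Mirg was at 0.69, Dll4 0.058, Gpihbp1 0.028, Myh6 -0.28, Igf2 0.23 and Thra -0.15. In fibroblast-marker barcodes Gpihbp1 was at 0.20, Myh7 0.42, Col1a1 -0.34, Col3a1 -0.33, Cpt1b 0.074 and Thra -0.056. Leaving out a library moved Thra to between -0.015 and 0.11, Esrra to between -0.11 and 0.11 and Cpt1b to between -0.15 and 0.0020. The cause was not tested.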
